A study of Homo sapiens with 6 samples.

Results

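The genes of caveolae were 8 of the 58884 genes listed for the KYSE450 pair, namely CAV1, CAV2, CAVIN1, CAVIN2, CAVIN3, EHD2, PACSIN2 and PACSIN3. They were chosen by symbol as the caveolins, the cavins expressed outside muscle and the membrane-shaping proteins known at caveolae, with earlier results of these data known. KYSE450 is an esophageal squamous cell carcinoma line with wild-type NRF2, and KEAP1null-KYSE450 is a monoclonal derivative made with CRISPR-Cas9 and a guide RNA against KEAP1. Both lines were cultured without treatment, and RNA sequencing of 3 libraries per line was compared to ask how NRF2 activation changes mRNA levels in KYSE450 cells. KEAP1null-KYSE450 is 1 clone set against its parental line, so loss of KEAP1 and any other difference of the clone cannot be told apart. Nothing in the labels says that the libraries of a line came from separate cultures, so p-values measure the spread between these libraries, which may be technical.

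Caveolae are small flask-shaped pits of the plasma membrane. Caveolins insert into the inner leaflet and assemble into a scaffold with cholesterol, cavins form a coat on its cytosolic side, and both CAV1 and CAVIN1 are required to form the pits outside muscle. The ATPase EHD2 sits at the neck and restrains the pit at the surface, and the F-BAR proteins PACSIN2 and PACSIN3 bend membrane there. In stratified squamous epithelium CAV1 is known chiefly from the basal layer, and caveolae are abundant in adipocytes, endothelium, fibroblasts and muscle.

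The values were normalized counts, that is, reads per gene divided by 1 factor per library. Libraries summed to between 54829313 and 57380170 normalized counts and held between 21811 and 23383 genes above 0. The columns name the line but no replicate number, so libraries 1 to 3 follow the column order within each line. The libraries expressed squamous epithelial markers, with 10 of 10 tested and a summed level of 380971 to 511656 in KYSE450 and 590070 to 739324 in KEAP1null-KYSE450. Of these, KRT5 was called higher and KRT6A, KRT14, KRT17 and PKP1 lower in KEAP1null-KYSE450 by the thresholds given below. KRT5, with means of 208100 in KYSE450 and 568248 in KEAP1null-KYSE450, made up most of the summed level in KEAP1null-KYSE450. By the adjusted p alone, 3 of the 10 markers were higher and 7 were lower. The edited gene did not separate the lines by its mRNA level. KEAP1 was at 5760, 5226 and 5146 normalized counts in KYSE450 libraries and at 5737, 4906 and 5317 in KEAP1null-KYSE450 libraries, which does not show whether transcripts carry an edit. NFE2L2, the gene of NRF2, was at 11199, 11215 and 10616 in KYSE450 and lower, at 8072, 7790 and 7980, in KEAP1null-KYSE450 (log2 fold change -0.47, standard error, SE, 0.09, limma adjusted p = 6.3e-04).

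The main caveolar scaffold and coat genes were lower in KEAP1null-KYSE450 cells, and a second cavin was higher. CAV1, CAV2 and CAVIN1 fell to between 16.0% and 40.6% of their KYSE450 means, and CAVIN2 rose 6.65-fold. Of the 8 genes, 7 passed the filter of a mean of 10 normalized counts and were tested. With an adjusted p under 0.05 and a log2 fold change of at least 1 in size, the thresholds used below for a gene called higher or lower, 3 of the 7 were lower and 1 was higher. Over all 16701 genes tested 5.98% were called lower and 12.2% higher, 18.2% in all. By the adjusted p alone, 5 were lower and 1 was higher, where the shares over all genes tested were 25.5% and 24.3%, or 49.8% in all. The libraries of the lines did not overlap for 6 of the 7, 5 lower and 1 higher, an arrangement that 29.3% of all genes tested had on the lower side and 28.4% on the higher side. The median log2 fold change of the 7 was -0.99, and that of all genes tested was 0.004. After quantile normalization the split over all genes moved from 2045 higher and 999 lower to 1388 higher and 1289 lower, and the same counts of 3 lower and 1 higher held for the caveolae genes. Less RNA per cell and fewer cells with the RNA cannot be told apart in bulk libraries.

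**Figure D1:**
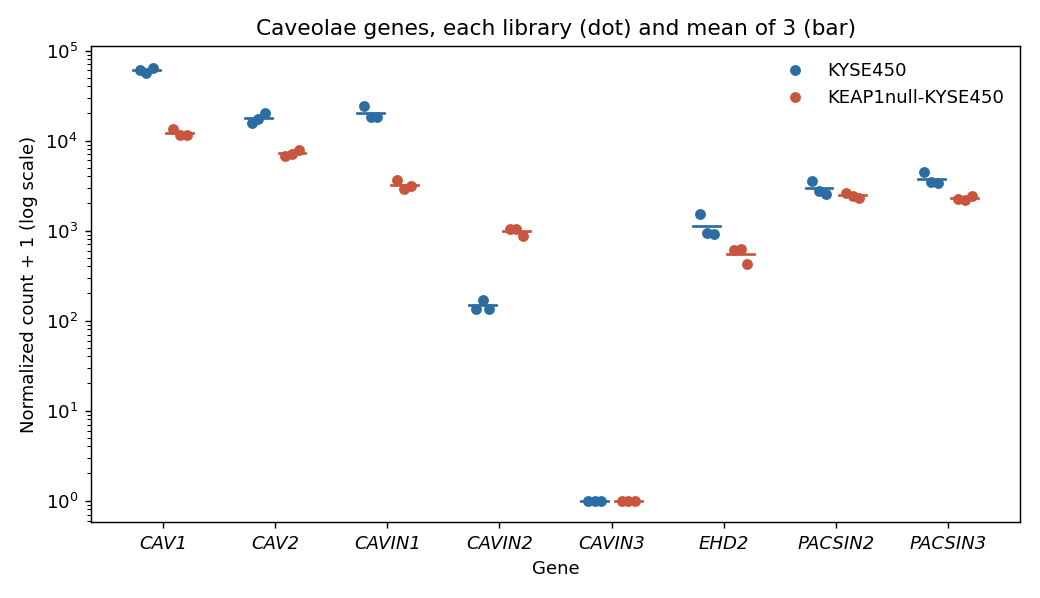
Normalized counts plus 1 of the 8 caveolae genes in each library, on a logarithmic axis where CAVIN3, listed at 0, lies at 1; points are single libraries of KYSE450 or KEAP1null-KYSE450 and bars are means of 3. CAV1, CAV2, CAVIN1, EHD2 and PACSIN3 lay lower in all KEAP1null-KYSE450 libraries, CAVIN2 lay higher in all, and PACSIN2 overlapped.

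CAV1, the scaffold protein of caveolae, is listed as ENSG00000105974 in hg38 (GRCh38) at chromosome 7, plus strand, 116524994 to 116561179. It was at 61416, 56676 and 64622 normalized counts in KYSE450 libraries and at 13355, 11546 and 11606 in KEAP1null-KYSE450 libraries. The lines were far apart, and libraries of a line differed little, with coefficients of variation of 6.56% and 8.44%. The mean fell 5.01-fold, from 60905 ± 3998 to 12169 ± 1027 (SD, n = 3 each), with the log2 fold change at -2.32 (SE 0.10, limma adjusted p = 2.6e-09). Per kilobase of exon, CAV1 ranked 123 among 16630 genes in KYSE450 and 651 in KEAP1null-KYSE450, so it remained well expressed.

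CAV2, the partner caveolin that assembles with CAV1 and needs it to reach the surface, is ENSG00000105971, annotated from 116287380 to 116508541 on the same strand. Its main transcript starts 25.3 kb before that of CAV1. The level of CAV2 was 15833, 17232 and 20125 normalized counts in KYSE450 and 6661, 7131 and 7797 in KEAP1null-KYSE450. All KEAP1null-KYSE450 libraries lay below all KYSE450 libraries, and the drop was smaller than that of CAV1. The mean fell 2.46-fold, from 17730 ± 2189 to 7196 ± 571 (SD, n = 3 each), with the log2 fold change at -1.30 (SE 0.11, limma adjusted p = 1.2e-06). A lncRNA on the opposite strand, AC002066.1, overlaps CAV2 in the annotation, and whether reads were counted by strand is not given in the sources used here. Its mean over the 6 libraries was 107 normalized counts, small beside CAV2. How reads of overlapping genes were assigned is not given either, so this value does not bound the effect on CAV2.

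CAVIN1, the coat protein without which caveolae do not form, is ENSG00000177469 at chromosome 17, minus strand, 42402449 to 42423256. It was at 23982, 18340 and 18152 normalized counts in KYSE450 and at 3616, 2924 and 3121 in KEAP1null-KYSE450. KYSE450 library 1 stood above the others of its line, and every KEAP1null-KYSE450 library was far below. CAVIN1 fell 6.23-fold, from 20158 ± 3313 to 3220 ± 357 (SD, n = 3 each), with the log2 fold change at -2.64 (SE 0.12, limma adjusted p = 4.7e-09). It had the largest drop of the 7 genes tested. Its rank per kilobase moved from 369 to 2471.

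CAVIN2, a cavin that binds phosphatidylserine and widens or tubulates caveolae, is ENSG00000168497 at chromosome 2, minus strand, 191834310 to 191847088. CAVIN2 was at 135, 168 and 135 normalized counts in KYSE450 and at 1039, 1027 and 859 in KEAP1null-KYSE450. The KEAP1null-KYSE450 libraries were all several-fold above the KYSE450 libraries. CAVIN2 means were 146 ± 18.9 and 975 ± 101 (SD, n = 3 each), with the log2 fold change at 2.73 (SE 0.15, limma adjusted p = 2.6e-08). CAVIN2 started from a low level, and its rank per kilobase moved from 11274 to 5696.

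CAVIN3, which binds protein kinase C delta and takes part in the traffic of caveolae, is ENSG00000170955 at chromosome 11, minus strand, 6318946 to 6320532. It was listed at 0 in all 6 libraries and could not be tested. A lncRNA on the opposite strand, ENSG00000282556, overlaps CAVIN3 in the annotation and was listed at 0 as well, and how reads of overlapping genes were assigned is not given in the sources used here. The 0 is therefore a listed value and not a measured absence of CAVIN3 mRNA. For a gene whose reads were all counted, 3 reads, the limit that a count of 0 allows, correspond to 2.77 to 3.21 normalized counts, which covers counting error only.

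The genes of the caveolar neck and of membrane curvature moved less. EHD2, ENSG00000024422 at chromosome 19, plus strand, 47713422 to 47743134, was at 1509, 928 and 916 normalized counts in KYSE450 and at 604, 627 and 429 in KEAP1null-KYSE450. The lines did not overlap, and KYSE450 library 1 was the highest by a wide margin. EHD2 fell from 1118 ± 339 to 553 ± 108 (SD, n = 3 each), with the log2 fold change at -0.99 (SE 0.20, limma adjusted p = 0.0013), just short of the fold threshold. Without KYSE450 library 1 the log2 fold change was -0.76, and without KYSE450 library 3 it was -1.12, past the threshold.

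PACSIN3 (ENSG00000165912, chromosome 11, minus strand, 47177522 to 47186443), an F-BAR protein best known from muscle, was at 4428, 3434 and 3374 normalized counts in KYSE450 and at 2261, 2199 and 2407 in KEAP1null-KYSE450. It was lower in all KEAP1null-KYSE450 libraries and fell 1.62-fold, from 3745 ± 592 to 2289 ± 107 (SD, n = 3 each), with the log2 fold change at -0.70 (SE 0.11, limma adjusted p = 3.0e-04), short of the fold threshold. PACSIN2 (ENSG00000100266, chromosome 22, minus strand, 42835412 to 43015149), the widely expressed relative, was at 3539, 2725 and 2545 in KYSE450 and at 2640, 2426 and 2308 in KEAP1null-KYSE450. These ranges overlapped, and PACSIN2 had a log2 difference of -0.24 (SE 0.12, limma adjusted p = 0.12). Without KYSE450 library 3 it was -0.34 with an adjusted p of 0.046 from limma. PACSIN2 overlaps ARFGAP3, a gene on the same strand with a mean of 1820 normalized counts. Among the 7 genes above 0, KYSE450 library 1 was the highest of its line for 4, namely CAVIN1, EHD2, PACSIN2 and PACSIN3. KEAP1null-KYSE450 library 1 was likewise the highest of its line for 4, namely CAV1, CAVIN1, CAVIN2 and PACSIN2. The part of either library in these differences was tested only by leaving it out.

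**Figure D2:**
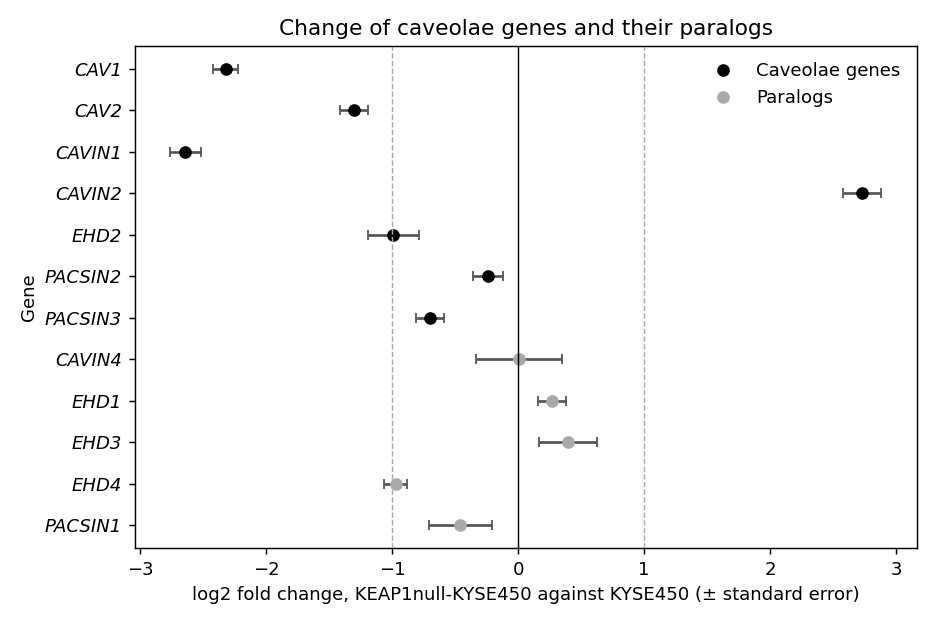
Log2 fold changes (KEAP1null-KYSE450 over KYSE450, on log2 of the normalized count plus 1) of the 7 caveolae genes tested and of their tested paralogs; bars are standard errors and dashed lines mark the fold threshold of 1. CAV1, CAV2 and CAVIN1 lay beyond the line on the lower side, CAVIN2 lay beyond it on the higher side, and EHD2 (-0.99) and EHD4 (-0.97) lay next to it.

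The stretches of sequence before the start sites of CAV1, CAV2 and CAVIN2 are shown because the first pair fell side by side on chromosome 7 while CAVIN2 rose. RefSeq promoter windows (GRCh38.p14), which hold 250 bases before and 50 after a start, were available for 5 of the 8 genes, that is CAV1, CAV2, CAVIN2, EHD2 and PACSIN2. They were searched on both strands for TGACNNNGC (the core of the antioxidant response element bound by NRF2), TGANTCA (AP-1), GGAATG (TEAD), GGGCGG (Sp1) and TATAAA. The 250 bases before each start are written 5′ to 3′ in the direction of the gene, from chr7:116524786-116525035 (plus strand), chr7:116499488-116499737 (plus strand) and chr2:191847089-191847338 (minus strand), and capitals mark GGGCGG or its complement CCGCCC in the caveolins and GGAATG in CAVIN2.
CAV1: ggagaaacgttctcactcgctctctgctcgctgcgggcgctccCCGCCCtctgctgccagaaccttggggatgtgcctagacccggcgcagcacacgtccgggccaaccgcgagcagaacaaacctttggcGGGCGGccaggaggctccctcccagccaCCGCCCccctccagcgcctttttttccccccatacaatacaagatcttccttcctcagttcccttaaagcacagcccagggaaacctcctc
CAV2: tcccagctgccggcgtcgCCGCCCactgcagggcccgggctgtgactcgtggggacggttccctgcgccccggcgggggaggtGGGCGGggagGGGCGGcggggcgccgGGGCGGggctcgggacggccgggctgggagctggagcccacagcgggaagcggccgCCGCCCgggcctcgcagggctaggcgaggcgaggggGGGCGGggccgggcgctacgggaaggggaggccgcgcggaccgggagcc
CAVIN2: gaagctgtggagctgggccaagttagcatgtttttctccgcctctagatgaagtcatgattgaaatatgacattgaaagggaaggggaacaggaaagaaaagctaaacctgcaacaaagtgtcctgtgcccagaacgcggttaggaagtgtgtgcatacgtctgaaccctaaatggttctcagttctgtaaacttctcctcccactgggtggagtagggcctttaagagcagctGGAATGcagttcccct

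Of the 5 promoters, that of CAVIN2 had the lowest GC content. GC content over the 300 bases was 61.7% for CAV1, 82.7% for CAV2, 71% for EHD2, 68.7% for PACSIN2 and 49.3% for CAVIN2. GGGCGG occurred 3 times before CAV1, at 207, 119 and 91 bases before the start, 6 times before CAV2, once before EHD2, at 57 bases, and 2 times before PACSIN2. It was not found for CAVIN2, and 45.0% of the 35116 promoter windows held it. CAVIN2 held GGAATG 16 bases before its start, a motif found in 14.0% of windows and in none of the other 4 caveolae promoters. TGACNNNGC, TGANTCA and TATAAA, held by 13.3%, 7.71% and 11.5% of all windows, were in none of the 5 windows searched. Only the window at the start of the main transcript of each gene was searched. The promoter set held 3 windows for CAV1, 2 for CAV2 and 6 for PACSIN2. A match is a run of letters and not a measured site, and the absence of one says nothing about binding outside the window.

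The relative levels of the caveolae genes also differed between the lines. Per kilobase of annotated exon, the order in KYSE450 was CAV1 (15746 ± 1034 normalized counts per kb, SD, n = 3), CAVIN1 (5646 ± 928), CAV2 (2695 ± 333), PACSIN3 (1359 ± 215), PACSIN2 (644 ± 116), EHD2 (291 ± 88.2) and CAVIN2 (47.8 ± 6.2). No neighbours in that order had overlapping ranges. In KEAP1null-KYSE450 the order was CAV1 (3146 ± 266), CAV2 (1094 ± 86.8), CAVIN1 (902 ± 99.9), PACSIN3 (831 ± 38.8), PACSIN2 (539 ± 36.9), CAVIN2 (319 ± 33) and EHD2 (144 ± 28.2). CAVIN1 overlapped with both of its neighbours there, and CAVIN2 had moved above EHD2. The exon length of CAV2 is raised by a long upstream transcript. With the length of the main transcript, CAV2 (6004 ± 741) overlapped with CAVIN1 (5646 ± 928) in KYSE450, and CAVIN1 (902 ± 99.9) stood below CAV2 (2437 ± 193) and PACSIN3 (1222 ± 57.1) in KEAP1null-KYSE450 without overlap.

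CAVIN2 made up little of the summed level of the cavins as listed in the parental line and a larger share in the clone. Per kilobase, its share of CAVIN1, CAVIN2 and CAVIN3 together, with CAVIN3 at its listed 0, was 0.653%, 1.06% and 0.863% in KYSE450 libraries and 25.1%, 29.1% and 24.3% in KEAP1null-KYSE450 libraries. The share of CAV1 in the sum of CAV1 and CAV2 was 86.8%, 84.8% and 84.5% in KYSE450 and 77.3%, 73.4% and 71.7% in KEAP1null-KYSE450. The CAV1 share was lower in every KEAP1null-KYSE450 library, and with main transcript lengths its means were 80.5% and 67.0%.

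Ratios within a library do not depend on how that library was scaled. They were computed for 6 pairs fixed in a list, and a ratio of CAVIN3 to CAVIN1 could not be formed. The log2 ratio of CAV1 to CAV2 was 1.96, 1.72 and 1.68 in KYSE450 and 1.00, 0.70 and 0.57 in KEAP1null-KYSE450, a difference of -1.03, so CAV1 was lowered further than CAV2 in these libraries. The log2 ratio of CAVIN2 to CAVIN1 was -7.46, -6.76 and -7.06 in KYSE450 and -1.80, -1.51 and -1.86 in KEAP1null-KYSE450, a difference of 5.37, the largest of the 6. The smallest difference was that of CAV1 to CAVIN1. Their log2 ratio was 1.36, 1.63 and 1.83 in KYSE450 and 1.88, 1.98 and 1.89 in KEAP1null-KYSE450, a difference of 0.31 with ranges that nearly touched. EHD2 over CAV1 went from a mean of -5.81 ± 0.41 to -4.47 ± 0.28, and EHD2 over its paralog EHD1 from -0.47 ± 0.26 to -1.73 ± 0.26 (SD, n = 3 each). PACSIN3 over PACSIN2 went from 0.35 ± 0.05 to -0.10 ± 0.15 (SD, n = 3 each). The pairs drew on genes chosen with earlier results of these data known. How often ratios of other gene pairs separate the lines was not computed. Among single genes tested, 29.3% were lower and 28.4% higher in all KEAP1null-KYSE450 libraries. None of the 6 ratios overlapped between the lines. Each had p = 0.1 in an exact two-sided permutation test, also after adjustment over the 6, and 0.1 is the smallest p that 3 against 3 libraries can give.

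**Figure D3:**
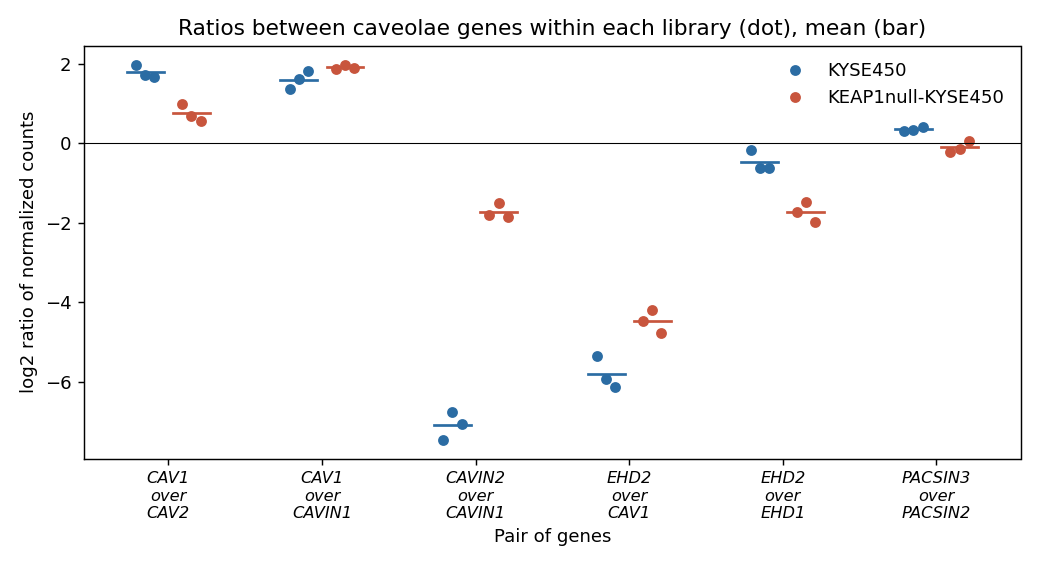
Log2 ratios between caveolae genes within each library; points are the 3 libraries of each line and bars are means. CAVIN2 over CAVIN1 lay 5.37 higher in KEAP1null-KYSE450 and CAV1 over CAV2 lay 1.03 lower, while CAV1 over CAVIN1 differed by 0.31.

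No close relative of the 8 genes was called in either direction. The share over all genes tested was 18.2%, so few calls would be looked for in a list this short. Of 6 paralogs, 5 were tested with limma, and 0 passed both thresholds, with 1 higher and 1 lower at an unadjusted p under 0.05 and 0 called by edgeR and by DESeq2. The median log2 fold change was 0.01. For the unadjusted p, here and in the lists that follow, the share over all genes tested was not computed. It cannot lie below the shares by the adjusted p, 24.3% higher and 25.5% lower. CAV3, the muscle caveolin, was listed at 0 in all libraries. CAVIN4, the muscle cavin, was at 47.1, 39.4 and 28.0 normalized counts in KYSE450 and at 29.5, 37.7 and 47.4 in KEAP1null-KYSE450, which overlapped fully (log2 fold change 0.01, SE 0.34). Among the EHD ATPases of endocytic recycling, EHD4 stood nearest to EHD2 in its change. EHD4 was just short of the fold threshold, at 3342, 3093 and 3270 in KYSE450 and at 1733, 1638 and 1595 in KEAP1null-KYSE450, a fall of 0.97 on the log2 scale (limma adjusted p = 4.3e-06). EHD1 (log2 fold change 0.27, limma adjusted p = 0.062) and EHD3 (0.40, limma adjusted p = 0.17) did not pass the test, nor did PACSIN1, the neuronal PACSIN (-0.46, limma adjusted p = 0.14). The EHD genes are alike in sequence, and whether this affected the counting of their reads was not tested.

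Partners of caveolae and of their scission moved in both directions. Of 12 genes, 11 were tested, with 2 called higher, 1 called lower and a median log2 fold change of -0.09. The shares of all genes tested, 12.2% called higher and 5.98% called lower, stand beside this count and those of the lists that follow, and no difference from them was tested. FLNA, the actin crosslinker filamin A, which binds CAV1 and links caveolae to stress fibers, was at 54876, 33742 and 32097 normalized counts in KYSE450 and at 15649, 13938 and 12957 in KEAP1null-KYSE450. FLNA fell by 1.46 on the log2 scale (SE 0.17, limma adjusted p = 2.0e-05), and KYSE450 library 1 was the highest. FYN, a Src-family kinase that phosphorylates CAV1, was at 82.4, 77.8 and 71.8 in KYSE450 and at 218, 212 and 178 in KEAP1null-KYSE450. FYN rose by 1.37 on the log2 scale (SE 0.20, limma adjusted p = 1.2e-04). ROR1, a receptor kinase that acts as a scaffold for CAV1 and CAVIN1, was low in both lines, at 13.9, 5.05 and 22.4 against 66.4, 45.9 and 59.5 (log2 fold change 2.17, SE 0.48, limma adjusted p = 0.0026).

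Flotillins and stomatins, membrane scaffolds apart from caveolae, had 4 of 6 genes tested, with 0 called higher and 1 called lower and a median of -0.21. At an unadjusted p under 0.05 from limma 1 was higher and 2 were lower, and edgeR and DESeq2 also called 0 higher. STOML1, a stomatin-like protein, fell from 641, 574 and 466 normalized counts to 258, 225 and 241 (log2 fold change -1.20, SE 0.16, limma adjusted p = 5.0e-05). FLOT1 was lower (-0.42, adjusted p = 0.0014) and FLOT2 higher (0.40, adjusted p = 0.0041, both limma), each short of the fold threshold.

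The clathrin pathway, the other main route of coated endocytosis, had 2 genes called higher and 0 called lower of 20 tested, near the shares of 12.2% and 5.98% over all genes tested, with a median of -0.15. At an unadjusted p under 0.05 from limma 3 were higher and 9 were lower, beside shares of at least 24.3% and 25.5% over all genes tested. edgeR and DESeq2 also called 0 lower. BIN1, an amphiphysin that bends membrane, was at 159, 110 and 157 normalized counts in KYSE450 and at 388, 380 and 433 in KEAP1null-KYSE450 (log2 fold change 1.51, SE 0.18, limma adjusted p = 2.9e-05). DAB2, a cargo adaptor, was at 44.9, 42.5 and 29.8 against 112, 84.6 and 89.8 (1.28, SE 0.28, limma adjusted p = 0.0022). CLTC and CLTB, a heavy and a light chain of clathrin, were lower by less than the fold threshold, with log2 fold changes of -0.64 and -0.72.

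Of 14 genes of receptors and surface proteins often found in caveolae, 12 were tested, with 0 called higher and 3 called lower and a median of -0.09. At an unadjusted p under 0.05 from limma 2 were higher and 5 were lower. PLAUR, the urokinase receptor, was at 280, 260 and 224 normalized counts in KYSE450 and at 37.8, 45.9 and 30.3 in KEAP1null-KYSE450 (log2 fold change -2.73, SE 0.23, limma adjusted p = 1.5e-06). NT5E, the surface ecto-nucleotidase CD73, was low throughout, at 35.3, 38.4 and 50.3 against 16.6, 1.02 and 4.04 (-2.89, SE 0.69, limma adjusted p = 0.0038). KCNMA1, a potassium channel subunit, was at 56.7, 64.7 and 30.8 in KYSE450 and within 3 reads in every KEAP1null-KYSE450 library, which makes it at least 17.2-fold lower against the mean floor of that line. TFPI, the tissue factor pathway inhibitor, was higher in all KEAP1null-KYSE450 libraries (0.89, limma adjusted p = 0.0017), and edgeR and DESeq2 on 4 libraries each called it higher. EGFR had a log2 fold change of 0.00.

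**Figure D4:**
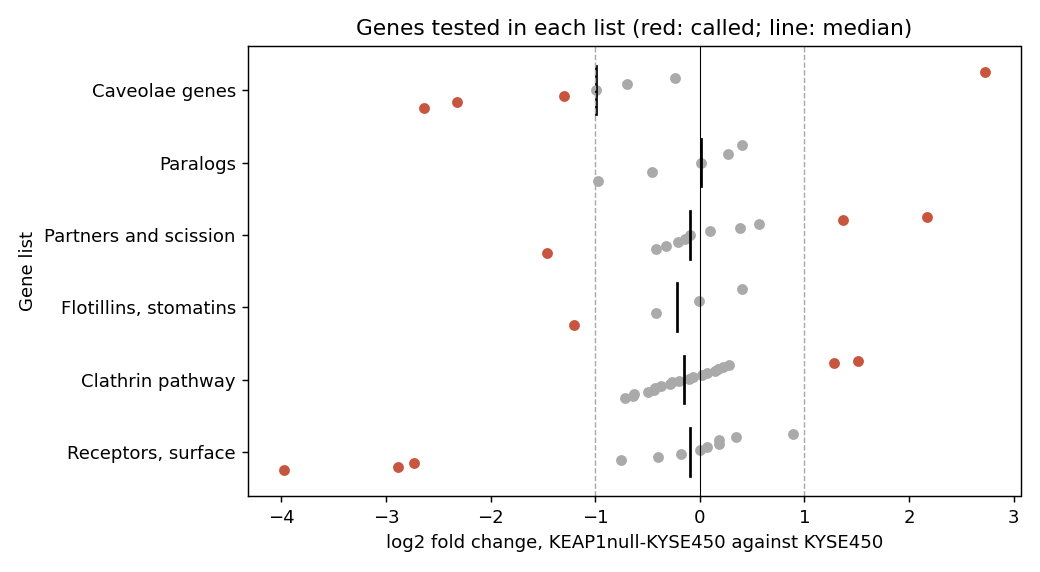
Log2 fold changes of every tested gene in the caveolae list and in the comparison lists, 1 point per gene, with called genes in red, the median of each list as a line and dashed lines at the fold threshold of 1. The caveolae genes have the lowest of the list medians shown (-0.99), and the other lists have medians between -0.21 and 0.01; the lowest point, KCNMA1, is a fitted value that depends on the pseudocount.

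Many markers of cell types rich in caveolae were at or near 0, and some were not. COL1A2 and DES were listed at 0 in all KYSE450 libraries, and PECAM1, CLDN5 and ADIPOQ in all 6. VWF, an endothelial marker, was at 35.4 to 67.6 normalized counts over the 6 libraries, and PLIN1, an adipocyte marker, at 10.2 to 24.2. LUM, a fibroblast marker, was at 6.42 to 14.2 in KYSE450 and at 0 in KEAP1null-KYSE450. Of 8 fibroblast markers 1 was tested, and their summed level was 622 to 856 normalized counts in KYSE450 and 352 to 436 in KEAP1null-KYSE450, nearly all from COL1A1. The 6 endothelial markers summed to 59.9 to 75.8 and to 48.0 to 70.6, the 4 adipocyte markers to 14.2 to 28.0 and to 16.6 to 34.7, and the 4 leukocyte markers to at most 9.1 and 5.1. CDH5, an endothelial cadherin, was at 10.7, 20.2 and 28.9 in KYSE450 and within 3 reads in KEAP1null-KYSE450, at least 6.76-fold lower. The 5 muscle markers summed to 334 to 445 in KYSE450 and 913 to 1247 in KEAP1null-KYSE450 because of ACTA2, smooth muscle actin, which rose by 1.51 on the log2 scale (limma adjusted p = 6.5e-06). The part of these genes in the values of the caveolae genes was not tested.

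From TES to MET, across CAV2 and CAV1, every gene tested was lower by the adjusted p, as were 25.5% of all genes tested. The ends of this stretch were set after the values were seen. That its genes were all lower, with the higher genes outside it, is therefore a description and not a test. Positions were compared at the lowest coordinate of each gene, here and at the other loci, which is the end of a gene on the minus strand. Within 1 Mb of the start of CAV1, 9 other genes were tested, with a median log2 fold change of -0.41. Over all genes tested, 12.2% were called higher and 5.98% lower, and no difference from these shares was tested. Of the 9, 1 was called higher and 3 lower, CAV2 included. The others called lower were the lncRNAs AC002066.1, from 147 ± 28.6 to 65.9 ± 28.8 normalized counts, and AC073130.1, from 54.6 ± 18.9 to 13.8 ± 3.2 (SD, n = 3 each). TFEC, a transcription factor gene 590 kb before CAV1, was called higher, from 3.32 ± 4.23 to 41.4 ± 5.99 (SD, n = 3 each). MET, the hepatocyte growth factor receptor gene 147 kb after the CAV1 start, fell from 5275 ± 490 to 2680 ± 439 (SD, n = 3 each), with the log2 fold change at -0.99 (limma adjusted p = 3.6e-05). TES, 314 kb before CAV1, was lower by 0.41 on the log2 scale (limma adjusted p = 0.0022), and CAPZA2 and ST7, 286 and 428 kb after it, had log2 fold changes of 0.18 and -0.01 that did not pass the test. ST7-AS1, an antisense RNA of ST7, had a log2 fold change of 0.71 (limma adjusted p = 0.045).

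**Figure D5:**
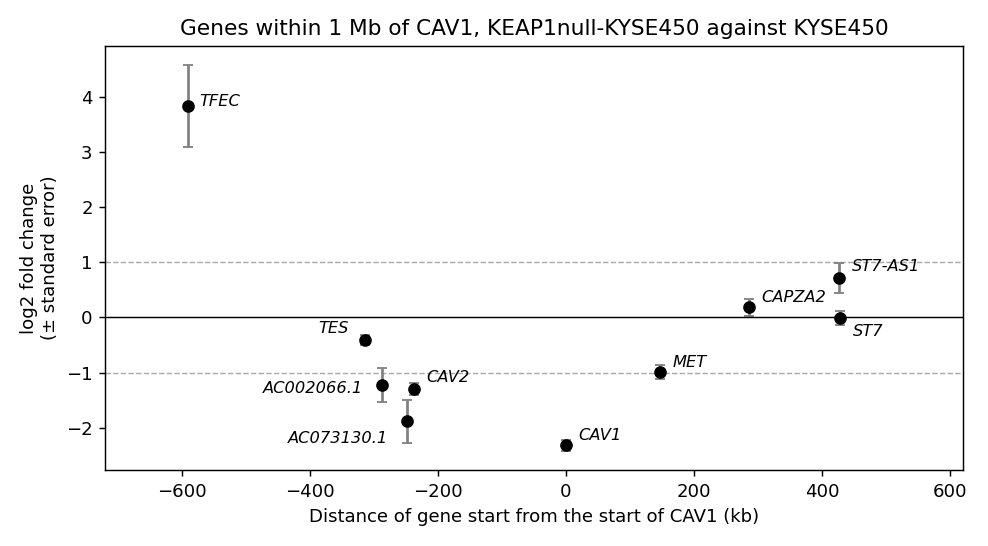
Log2 fold changes of the genes tested within 1 Mb of CAV1, by distance of their lowest annotated coordinate from that of CAV1 in kb. Bars are standard errors and dashed lines mark the fold threshold of 1. CAV1 (-2.32) and CAV2 (-1.30) were lower together, MET reached -0.99, and TFEC was higher (3.83), from a KYSE450 mean of 3.32 normalized counts. CAV2 is placed at the start of its longest annotation, not at its main transcript.

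The counts around the other loci stand beside 12.2% of all genes tested called higher and 5.98% called lower, and no difference from these shares was tested. Of 70 genes within 1 Mb of CAVIN1, 5 were higher and 8 lower with a median log2 fold change of -0.22. KRT14 (-6.09) and KRT17 (-4.85), keratins of basal and stressed epithelium, were among the lower genes, and the lncRNA AC130686.1 was at least 8.45-fold higher. The keratin genes there did not move together. KRT15 was called higher (1.72), from 69800 ± 16876 to 225773 ± 16611 normalized counts (SD, n = 3 each). KRT13 was called lower (-1.40), and KRT16, KRT19 and KRT32 were not called. Around CAVIN2, 7 genes were tested with a median of -0.13, and STAT4 alone was called, higher by 2.10 on the log2 scale with a wide spread in KEAP1null-KYSE450 (42.3 ± 30.2 normalized counts, SD, n = 3). Around EHD2, 5 of 44 genes were higher and 0 lower, led by C5AR1 (2.38), SYNGR4 (1.81) and CARD8-AS1 (1.74). Around PACSIN2, 7 of 31 were higher and 2 lower, with the largest changes in NFAM1 (2.79), A4GALT (-2.68) and LINC01315 (2.64). Around PACSIN3, AGBL2 (1.07) was higher and CKAP5 (-1.02) lower of 31 genes. Around CAVIN3, 3 of 21 were higher and 3 lower, with the largest changes in ZNF214 (3.07), OR2AG2 (-2.32) and DCHS1 (2.01). Several of these neighbours were near the limit of 3 reads, with KYSE450 means of 3.28 for ZNF214 and 5.86 for DCHS1. NFAM1 in KYSE450 (13.3 ± 16.3) and OR2AG2 in KEAP1null-KYSE450 (8.03 ± 10.9, SD, n = 3 each) varied by more than their means. The genes around EHD2, PACSIN2, PACSIN3 and CAVIN3 had median log2 fold changes of -0.07, 0.00, -0.38 and -0.30.

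The gene with the pattern most like that of CAV1 was F2RL1, the protease-activated receptor PAR2. Likeness was the root mean square difference over the 6 libraries between log2 values centred on the KYSE450 mean of each gene, among 7757 other genes with a mean of at least 1000. F2RL1 had a difference of 0.043 and went from 7130 ± 525 to 1413 ± 168 normalized counts (SD, n = 3 each). PGM2L1, FOXE1, PLPP1 and IGF2BP1 followed, with differences of 0.083, 0.124, 0.133 and 0.140. CAVIN1 stood at rank 17 (0.263) and CAV2 at rank 134 (0.743), while PACSIN3 and PACSIN2 stood at 767 and 3175. The 6 points share 2 lines, so this order is mainly one of fold changes near that of CAV1.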

How the data were processed

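RNA from 3 libraries of KYSE450 cells and 3 of KEAP1null-KYSE450 cells was sequenced. The authors deposited 1 matrix of normalized counts, a signal that equals the reads of a gene divided by 1 factor per library. Their methods name alignment to hg38 with STAR, counting with featureCounts and DESeq2. The submitters' processing notes list FastQC 0.11.5, cutadapt 1.12, STAR 2.6.90c and featureCounts 1.5.1, and mm10 beside hg38. RefSeq is the annotation named there, but the 58884 rows carry Ensembl identifiers, 58472 of them in gencode v44, which gave positions and exon lengths.

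The 8 caveolae genes were taken by symbol, using the row with the highest mean. The members and all lists were chosen with earlier results of these data known. limma 3.58.1 (R 4.3.3; lmFit, eBayes with trend) was fitted to log2 of the normalized count plus 1 for the 16701 genes whose mean reached 10, with two-sided tests and Benjamini-Hochberg adjustment over all of them. The pseudocount makes the fold changes of low genes too small. Called genes had an adjusted p under 0.05 and a log2 fold change of at least 1 in size. For 4 libraries, KYSE450 libraries 1 and 3 and KEAP1null-KYSE450 libraries 1 and 2, whole reads were recovered, 53027359 to 61543442 per library. In all 6 libraries 100.0% of values lay within 0.1 of a whole multiple of the step of 1 read, but in the other library of each line that step was 1.01, too near 1 to tell recovered reads from rounding, and that library was left out. On the 4, edgeR 4.0.16 (quasi-likelihood test, TMM) and DESeq2 1.42.0 were run as alternatives. All fits were tested on simulated data.

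The genes named were the 8 members, all paralogs, KEAP1 and NFE2L2, up to 4 called genes per direction of each other list and up to 3 called neighbours per locus by size of change, and the 5 genes most like CAV1. MET, TES, CAPZA2, ST7, ST7-AS1, FLOT1, FLOT2, CLTC, CLTB, TFPI, EGFR, KRT13, KRT15, KRT16, KRT19 and KRT32 were named after their values were seen. Libraries of a line were compared in case 1 had been deposited 2 times, and chi-square per gene within a line was 11.9 to 84.3, where sampling noise alone gives 1.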

Additional observations from a re-analysis of the deposited data

How the results depend on the processing

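The log2 fold changes of CAV1 (-2.39 to -2.28), CAV2 (-1.38 to -1.09), CAVIN1 (-2.73 to -2.45) and CAVIN2 (2.61 to 2.97) stayed past both thresholds under 15 other settings, with highest adjusted p of 8.7e-05, 0.0011, 1.8e-04 and 1.1e-04. The settings were a pseudocount of 0.1 or of 10, all genes unfiltered, a minimum mean of 100, equal totals, quantile normalization, eBayes without trend, leaving out each library, and edgeR or DESeq2 on 4 libraries. EHD2 (-1.12 to -0.76) and PACSIN3 (-0.80 to -0.57) stayed past the adjusted p in all 15, EHD2 past the fold threshold in 4 and PACSIN3 in 0. PACSIN2 (-0.34 to -0.10) passed the adjusted p in 1. No result reversed.

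Without a fold threshold, the genes lower were 5 of the caveolae genes (3 with it), 1 paralog (0), 3 partners (1), 2 flotillins and stomatins (1), 8 of the clathrin pathway (0) and 5 receptors and surface proteins (3), and the genes higher were 1 caveolae gene (1), 0 paralogs (0), 3 partners (2), 1 flotillin or stomatin (0), 3 of the clathrin pathway (2) and 2 receptors and surface proteins (0). Over all genes tested, 25.5% were lower and 24.3% higher without a fold threshold, and no difference from these shares was tested. With a mean of at least 100, which tests fewer genes, 1 partner (2) and 1 clathrin gene (2) were higher and 1 receptor (3) lower. Quantile normalization gave 1 clathrin gene higher (2). edgeR and DESeq2 each gave 1 receptor higher (0), TFPI. With 1 library left out, the receptors higher were 0 to 1, the 1 again TFPI, without KYSE450 library 2 or KEAP1null-KYSE450 library 3, and the caveolae genes lower were 3 to 4, the added gene being EHD2. Other causes of these moves were not tested.

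No paired analysis was possible because the columns carry no replicate numbers. Depth limits KCNMA1, NT5E and CDH5, whose values were at or near the limit of 3 reads in at least 1 library. It also limits neighbours that were low in at least 1 line, such as AC130686.1, TFEC, ZNF214, DCHS1, NFAM1 and OR2AG2. The cause of the listed 0 of CAVIN3 and CAV3 was not tested. Main transcript lengths, an alternative added after the data were seen, changed the order of CAV2 and CAVIN1 per kilobase in KYSE450.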
